A study of Mus musculus with 29 samples.

Results

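Expression of 10 genes of the TNF superfamily was followed through 6 mouse models of colitis. They were 6 ligands (Tnfsf10, Tnfsf11, Tnfsf13, Tnfsf13b, Tnfsf14 and Tnfsf15), the receptors Tnfrsf1b and Tnfrsf25, and the receptor and ligand pair Cd40 and Cd40lg. The members were chosen by symbol, as the rows of the count table whose Ensembl identifier carries one of these names, and all 10 of 10 were found among the 54532 genes of the table. All 10 passed the filter on low counts that left 18616 genes for testing. The question was which of these genes changed in the colon of each model against its own control, and by how much.

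TNF superfamily ligands are trimeric membrane proteins, many of which are also shed, and they act by clustering receptors on neighbouring cells. Receptors with a death domain can start apoptosis through adaptors such as TRADD and FADD, and those without one recruit TRAF proteins that switch on the canonical and alternative NF-kB pathways. In the intestine the family takes part in lymphoid follicle formation, in survival of B cells and plasma cells, in costimulation of T cells and in the activation of macrophages and stromal cells, and TNF itself is the target of antibody therapy in inflammatory bowel disease.

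RNA of whole colon was sequenced from 29 mice in 9 groups. TRUC mice (BALB/c, Tbx21-/- x Rag2-/-, n = 4), which lack T-bet as well as T and B cells and become ill without treatment, were compared with untreated BALB/c Rag2-/- mice (Rag2 control, n = 3). Wild-type mice labelled BALB/c served as control (WT control, n = 3) for DSS mice (n = 3), given 3% dextran sulphate sodium in the drinking water for 5 days and culled at day 10. They also served for DNBS mice (n = 3), given 3 mg dinitrobenzene sulphonic acid rectally, and for IL10 antibody mice (n = 4). The labels of the last group name a blocking antibody to IL10, and the protocol describes 750 µg of antibody to the IL-10 receptor with culling after 4 weeks, whereas the methods of the study name Il10-/- mice. TCT mice (T cell transfer, n = 3) received 500000 naive CD4+ T cells and were culled after 6 to 8 weeks. Anti-CD40 mice (n = 3) received 50 µg of an agonist antibody to CD40, the protein of one of the members, and were culled after 7 days. Both were labelled C57BL/6 Rag1-/- and compared with mice carrying that label and no treatment (Rag1 control, n = 3), although the protocol names Rag2-/- recipients for the transfer. For DSS the study's methods instead name C57BL/6 mice and culling at day 7 or 8, and for the transfer they name culling after 4 to 6 weeks. The labels gave no ages, the study's methods describe specific pathogen-free housing, and the sources used here do not say whether littermates were shared. The p-values therefore measure the spread between these mice only.

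Several libraries went against their strain or genotype labels. H2-Ea-ps, which BALB/c mice express and C57BL/6 mice do not, had at most 1 count in each WT control, DSS, DNBS and IL10 antibody mouse. All of these were labelled BALB/c, although the study's methods name C57BL/6 mice for DSS. In the Rag1 control and anti-CD40 libraries, both labelled C57BL/6, it had 787 to 1011 and 2262 to 2512 counts, as in the Rag2 control (784 to 1462) and TRUC (2981 to 3956). Rag2 had 6 to 20 counts in the Rag1 control and 48 to 99 in anti-CD40, beside 15 to 25 in the Rag2 control, 57 to 94 in TRUC and 0 in TCT, and Rag1 had 20 to 33 counts in TCT and at most 4 in any other mouse. Of H2-Ea-ps the TCT libraries had 0 counts. TCT and the libraries labelled Rag1 control thus differed in this strain marker and in Rag1 and Rag2 counts, as well as in the transferred cells. Strain, genotype and treatment cannot be told apart in that comparison. TCT was for this reason also set against the WT control, which lacks the marker but has its own T and B cells. TCT and anti-CD40 were set against the Rag2 control as well, which carries the marker, so for TCT that comparison has the same mismatch. Tbx21 carried 26 to 52 counts in TRUC mice against 1 to 7 in the Rag2 control, so total Tbx21 counts do not show the deletion. The summed level of 7 T cell markers was 107 to 203 counts-per-million (CPM) in TCT and 77.9 to 134 CPM in IL10 antibody mice, against 3.19 to 9.70 CPM in every other Rag-based mouse. In RNA of whole tissue, fewer cells of a type and less RNA per cell cannot be told apart.

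Total counts were 10725564 to 14977094 per mouse, and a count of 0 allows a level of up to 0.179 to 0.314 CPM, covering counting error only. CPM values are scaled by edgeR's TMM factors, values given with ± are the mean and SD over mice, and log2 fold changes are given with their standard error. Adjusted p is from the quasi-likelihood test of edgeR, adjusted by Benjamini and Hochberg's method over the 18616 genes, and a gene is said to have risen or fallen where it was below 0.05.

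DSS mouse 8 and DNBS mouse 16 stood apart from the other mice of their groups. In DSS mouse 8 Cd40 was 6.84 times, Tnfsf11 5.96 times, Tnfsf14 4.31 times and Tnfrsf1b 3.66 times the mean of the other DSS mice, and its summed level of monocyte and macrophage markers, 2543 CPM, was the top of a DSS range that began at 965 CPM. Its summed level of 6 neutrophil markers was 1603 CPM against 174 and 321 CPM in the other DSS mice. In DNBS mouse 16 Tnfsf10 was 8.29 times the mean of the other DNBS mice. IL10 antibody mouse 4 also stood apart in some genes. Its summed level of epithelial markers was 13106 CPM against 6368 to 7982 CPM in the other IL10 antibody mice. Its Tnfsf15 was at 0.627 CPM against 2.49 to 3.22 CPM. Calls that changed and sizes that moved most without DSS mouse 8 or DNBS mouse 16 are also given without them. The part of cell composition in the values of these mice was not tested.

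Per kilobase of exon, Tnfrsf1b was the most abundant of the 10 members in every group, from 6.46 CPM per kb in the WT control to 82.6 CPM per kb in TRUC. Cd40lg was the least abundant in 8 of 9 groups, and second to last in TCT. In the WT control Tnfrsf1b was followed by Tnfsf13 at 3.81, Tnfsf10 at 2.91 and Tnfsf13b at 1.96 CPM per kb. Cd40 at 1.13 and Tnfrsf25 at 1.11 CPM per kb were hardly apart, and Tnfsf14 at 0.278 CPM per kb was the lowest of the 6 ligands named Tnfsf.

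The starts of the genes were read from RefSeq promoters (GRCm38.p6), which had windows for 8 of the 10 members and none for Cd40 and Cd40lg. Windows of 300 bases, from 250 before to 50 after each start, were searched on both strands for GAS (TTCNNNGAA), AP-1 (TGANTCA), the TATA box (TATAAA), the NF-kB consensus and an ISRE core of GAAA and GAAA separated by 2 bases. The upstream bases are shown for Tnfsf10 and Tnfrsf1b, the ligand and the receptor that rose in the most models, and for Tnfsf14, a ligand that rose in 4, with any motif match in capitals.
Tnfsf10: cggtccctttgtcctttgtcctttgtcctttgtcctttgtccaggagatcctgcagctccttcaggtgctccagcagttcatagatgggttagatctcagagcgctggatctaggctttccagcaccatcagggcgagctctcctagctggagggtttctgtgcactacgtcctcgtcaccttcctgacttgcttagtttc
Tnfsf14: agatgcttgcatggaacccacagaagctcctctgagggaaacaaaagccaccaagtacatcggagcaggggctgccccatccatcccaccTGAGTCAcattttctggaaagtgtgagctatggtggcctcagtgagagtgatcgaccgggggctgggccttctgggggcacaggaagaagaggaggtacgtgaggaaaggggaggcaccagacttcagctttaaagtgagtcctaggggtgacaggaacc
Tnfrsf1b: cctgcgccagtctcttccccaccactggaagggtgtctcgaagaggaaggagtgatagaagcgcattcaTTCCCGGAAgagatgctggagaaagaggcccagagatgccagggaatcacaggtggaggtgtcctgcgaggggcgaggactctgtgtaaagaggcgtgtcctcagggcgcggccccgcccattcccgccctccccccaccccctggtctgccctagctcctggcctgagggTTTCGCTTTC
The Tnfsf10 stretch lies at chr3:27316827-27317027 on the + strand, just upstream of the gene as GENCODE M21 places it, and held no match. That of Tnfsf14, at chr17:57194182-57194431 on the - strand, held an AP-1 match beginning 160 bases before the start. The stretch of Tnfrsf1b, at chr4:145246871-145247120 on the - strand, held a GAS match 181 bases and an ISRE core 10 bases before the start. Among 32851 mouse promoter windows of this length 8.30% held GAS, 7.81% AP-1, 3.44% the ISRE core, 4.51% the NF-kB consensus and 13.6% the TATA box. None of the 8 members' windows held the NF-kB consensus, which says only that these letters were not there.

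**Figure D1:**
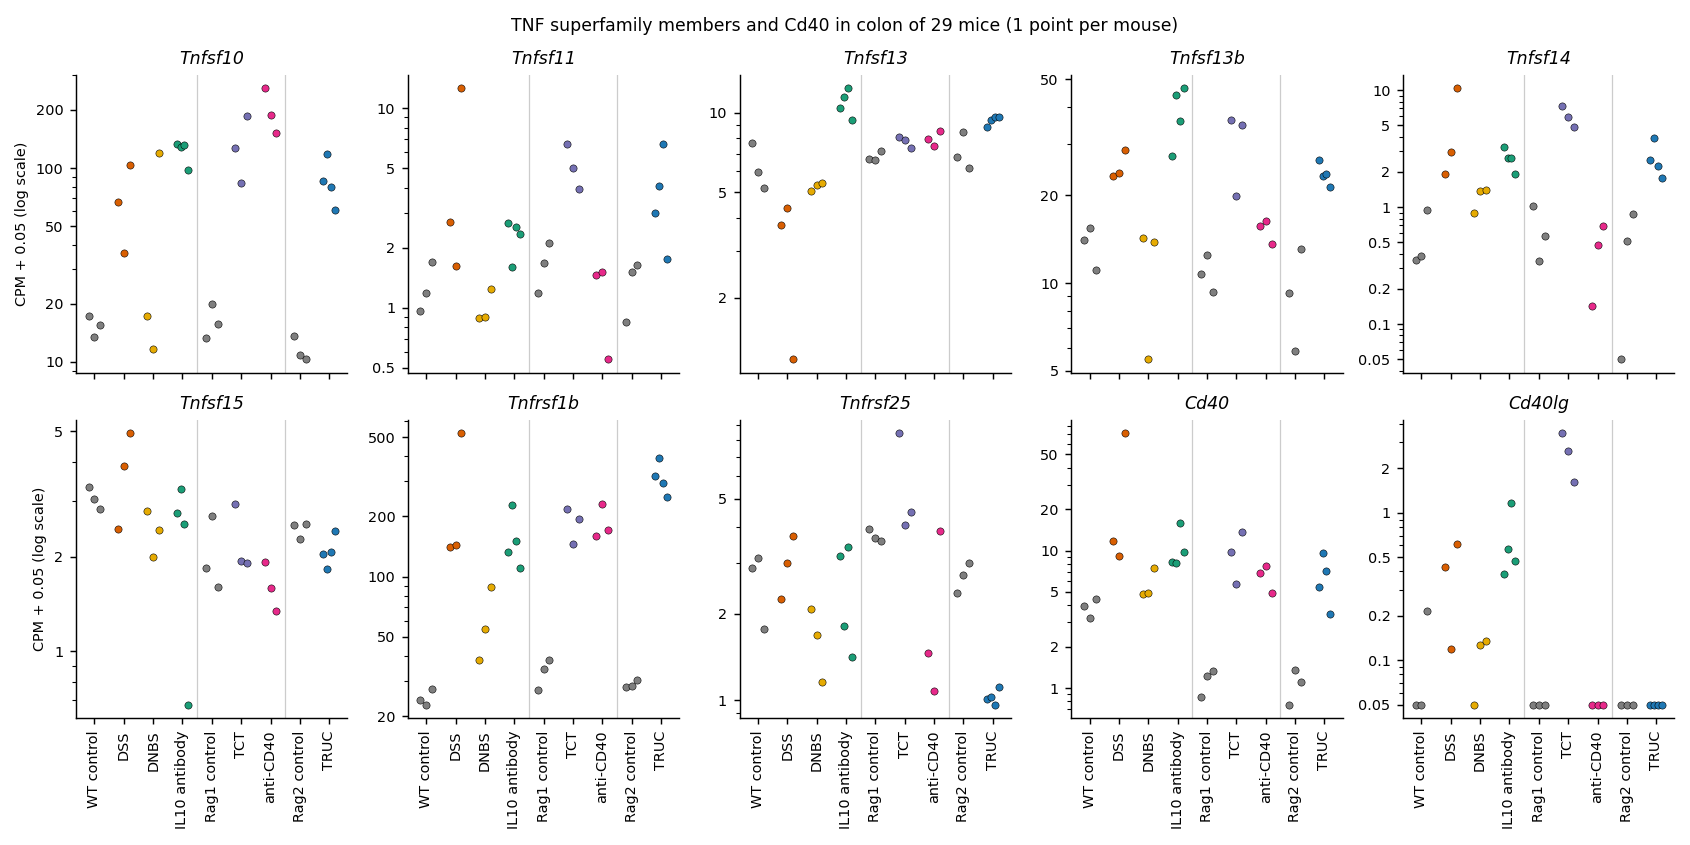
Level of each of the 10 genes in each mouse, in CPM plus a small offset so that 0 can be drawn, on a log axis, with 1 point per mouse in 9 groups and vertical lines between the sets of models that share a control. Tnfsf10 and Tnfrsf1b sit above their controls in nearly all colitis mice, Tnfsf15 stays between 0.627 and 4.88 CPM throughout, and Cd40lg is at 0 in 13 mice of 4 groups with a Rag genotype.

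Tnfsf10 encodes TRAIL, a ligand that can kill cells through the death receptor encoded by Tnfrsf10b. It lies at chr3:27317028-27342427 on the + strand (GRCm38). In the WT control mice it stood at 17.3, 13.3 and 15.4 CPM, in the Rag1 control at 13.3, 19.9 and 15.7 CPM and in the Rag2 control at 13.5, 10.9 and 10.3 CPM. The 3 control groups lay close together and their ranges overlapped. In IL10 antibody mice it was at 133, 129, 132 and 97.3 CPM, in TCT at 126, 84.0 and 185 CPM, and in anti-CD40 at 258, 187 and 152 CPM. TRUC mice had 85.8, 118, 79.4 and 60.4 CPM and DSS mice 67.1, 36.4 and 104 CPM. All mice of these 5 models were above all their controls. The DNBS mice, at 17.1, 11.6 and 119 CPM, lay within, below and far above the range of the WT control.

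The rise of Tnfsf10 was 12.2-fold in anti-CD40 (log2 3.61 ± 0.58, edgeR adjusted p = 0.000171), the group with the highest mean, and 8.08-fold in TCT (3.01 ± 0.56, adjusted p = 0.00024). It was 8.01-fold in IL10 antibody mice (3.00 ± 0.55, adjusted p = 0.000101), 7.44-fold in TRUC (2.90 ± 0.55, adjusted p = 0.000224) and 4.51-fold in DSS (2.17 ± 0.55, adjusted p = 0.0038). In DNBS the log2 difference of 1.68 ± 0.54 did not pass (edgeR adjusted p = 0.0641). It passed without DNBS mouse 11 (2.09, adjusted p = 0.0151) or mouse 14 (2.15, adjusted p = 0.026), and without mouse 16 it was -0.09 (adjusted p = 0.939). The changes in the 6 models did not differ by the F test over models (adjusted p = 0.121), whereas without DNBS mouse 16 they did (1.67e-05). Tnfrsf10b, the receptor, rose in TRUC by log2 0.68 (adjusted p = 0.0021) and passed in none of the other 5 models.

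Tnfrsf1b, which encodes TNFR2, the receptor for TNF and lymphotoxin alpha that has no death domain, was the only member to pass in all 6 models. It lies at chr4:145213463-145246870 on the - strand. WT control mice had 24.1, 22.8 and 27.1 CPM, Rag1 control 27.1, 34.3 and 38.0 CPM, and Rag2 control 28.1, 28.4 and 30.4 CPM. TRUC mice had 320.5, 394, 296 and 251 CPM, DSS mice 140.2, 144 and 521 CPM, and IL10 antibody mice 133, 229, 151 and 111 CPM. TCT mice had 218, 145 and 194 CPM, anti-CD40 mice 159, 231 and 171 CPM, and DNBS mice 38.3, 54.5 and 88.2 CPM. Every mouse of every model was above every mouse of its control, and DNBS was the lowest model. Neutrophil markers were also higher in every model. Their summed level was 754 to 1248 CPM in TRUC, 174 to 1603 in DSS and 131 to 335 in IL10 antibody. It was 110 to 258 in TCT, 31.5 to 190 in anti-CD40 and 20.8 to 95.2 in DNBS. Controls had 0.892 to 1.74 CPM, with Cxcr1 and Cxcr2 at 0. Of 5 of these markers that could be tested 5 rose in each model but anti-CD40, where 4 did. DSS mouse 8 had the highest value of all mice in both, 1603 CPM of these markers and 521 CPM of Tnfrsf1b. Anti-CD40 mice 6 and 8 had 31.5 and 35.5 CPM of these markers, within the DNBS range, and 159 and 171 CPM of Tnfrsf1b. Monocyte and macrophage markers were higher too, at 610 to 622 CPM in DNBS and 877 to 2543 CPM in the other models, against 318 to 441 CPM in the controls. The part of either cell type in the levels of Tnfrsf1b and Tnf was not tested.

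Tnfrsf1b rose 10.9-fold in TRUC (log2 3.45 ± 0.39, edgeR adjusted p = 7.28e-07) and 10.9-fold in DSS (3.44 ± 0.40, adjusted p = 2.85e-06), the latter 2.53 on the log2 scale without DSS mouse 8 (adjusted p = 2.11e-06). The rise was 6.31-fold in IL10 antibody mice (2.66 ± 0.38, adjusted p = 6.52e-06), 5.65-fold in anti-CD40 (2.50 ± 0.39, adjusted p = 0.000123) and 5.61-fold in TCT (2.49 ± 0.39, adjusted p = 2.73e-05). TCT and anti-CD40 themselves differed by -0.01 ± 0.36 on the log2 scale. In DNBS the rise was 2.44-fold (1.29 ± 0.38, adjusted p = 0.042), and this call was lost when any of 5 of the 6 mice was left out. Without WT control mouse 1, 2 or 4 the log2 change was 1.27, 1.24 and 1.36 (adjusted p = 0.138, 0.138 and 0.0837), without DNBS mouse 14 it was 1.36 (0.0917), and without mouse 16 it was 0.91 (0.25). The size of the change differed between models (F test, adjusted p = 0.000993). Tnf, which encodes the ligand, was at 18.7 to 66.5 CPM in the TRUC mice against 1.05 ± 0.788 in their control (log2 5.32, adjusted p = 5.87e-05) and rose by log2 3.52 to 5.89 in DSS, IL10 antibody, TCT and anti-CD40, with 2.45 in DNBS (adjusted p = 0.0905). The top of that range was DSS, where Tnf rose by 3.91 without mouse 8. Tnfrsf1a, the other TNF receptor, which has a death domain, rose in all 6 models by log2 0.91 to 1.71, but did not pass in DNBS without mouse 16 (0.59, adjusted p = 0.288).

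**Figure D2:**
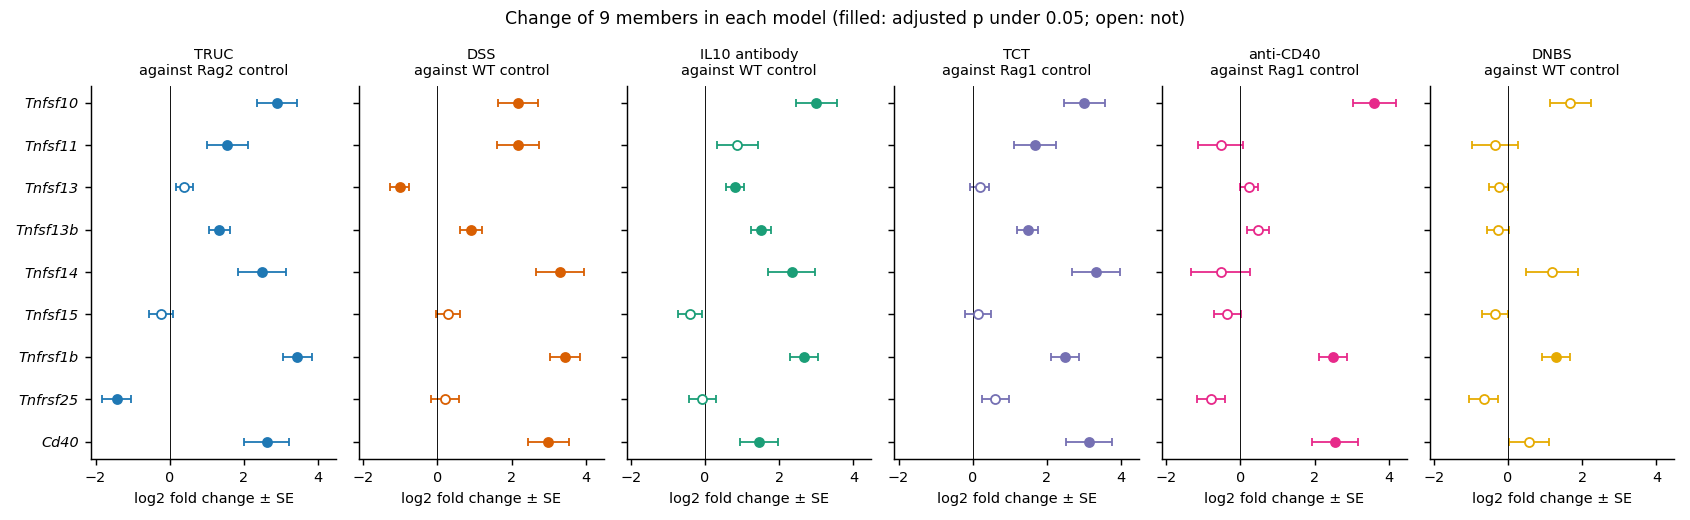
Log2 fold change of 9 members in each of the 6 models against its own control, with bars of 1 standard error and filled points where the adjusted p was below 0.05 (Cd40lg is not drawn because several groups had no count). Tnfrsf1b lies between 1.29 and 3.45 in all models, while Tnfsf14 runs from -0.53 in anti-CD40 to 3.32 in TCT.

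Tnfsf14 (chr17:57189492-57194177, - strand) encodes LIGHT, a ligand of the herpesvirus entry mediator encoded by Tnfrsf14 and of the lymphotoxin beta receptor. It was scarce in controls, with 0.305, 0.333 and 0.902 CPM in the WT control, 0.973, 0.295 and 0.516 in the Rag1 control and 0, 0.459 and 0.831 in the Rag2 control. TCT mice had 7.34, 5.81 and 4.82 CPM, DSS mice 1.89, 2.94 and 10.4, IL10 antibody mice 3.20, 2.60, 2.57 and 1.88, and TRUC mice 2.51, 3.83, 2.20 and 1.71 CPM. All mice of these 4 models were above their controls. Anti-CD40 mice had 0.0939, 0.429 and 0.646 CPM and DNBS mice 0.836, 1.32 and 1.36 CPM, both overlapping their controls.

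The rise of Tnfsf14 was 10.0-fold in TCT (log2 3.32 ± 0.64, edgeR adjusted p = 0.000326), 9.82-fold in DSS (3.30 ± 0.65, adjusted p = 0.000462), 5.65-fold in TRUC (2.50 ± 0.65, adjusted p = 0.00334) and 5.04-fold in IL10 antibody mice (2.33 ± 0.64, adjusted p = 0.00386). Controls held few reads, and single mice of controls or models moved these sizes. Without WT control mouse 4 the log2 change was 3.93 in DSS (adjusted p = 0.00113) and 2.97 in IL10 antibody mice (0.0037), without DSS mouse 8 it was 2.24 (0.00866), and without Rag2 control mouse 4 it was 3.35 in TRUC (0.00333). DNBS (1.19 ± 0.69, adjusted p = 0.296) and anti-CD40 (-0.53 ± 0.79, adjusted p = 0.677) did not pass. Of the receptors, Ltbr rose in all 6 models by log2 0.40 to 1.20 but did not pass in DNBS without mouse 16 (0.45, adjusted p = 0.0884), and Tnfrsf14 rose in TCT (1.55, adjusted p = 9.77e-06), anti-CD40 (0.95, 0.00405) and IL10 antibody mice (0.50, 0.0441).

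Tnfsf11 (chr14:78277445-78308043, - strand) encodes RANKL, the osteoclast factor that in the intestine also drives the formation of M cells over lymphoid follicles. WT control mice had 0.914, 1.13 and 1.64 CPM, Rag1 control 1.14, 1.62 and 2.07, and Rag2 control 0.797, 1.45 and 1.59 CPM. TCT mice had 6.55, 4.96 and 3.89 CPM and TRUC mice 2.95, 4.00, 6.597 and 1.71 CPM, all above their controls. DSS mice had 2.64, 1.57 and 12.6 CPM, of which mouse 6 lay within the control range. The log2 change was 2.17 ± 0.57 in DSS (edgeR adjusted p = 0.00513), 1.67 ± 0.56 in TCT (0.0264) and 1.55 ± 0.55 in TRUC (0.0245).

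None of these 3 calls for Tnfsf11 held without each mouse in turn. In DSS it was 0.78 without mouse 8 (adjusted p = 0.241). In TCT it was 1.48 and 1.69 without Rag1 control mouse 2 or 3 and 1.46 without TCT mouse 1 (adjusted p = 0.0942, 0.0705 and 0.0767). In TRUC it was 1.31 and 1.65 without Rag2 control mouse 1 or 2 and 1.15 without TRUC mouse 4 (adjusted p = 0.102, 0.0515 and 0.104). IL10 antibody (0.87 ± 0.56, adjusted p = 0.194), DNBS (-0.36 ± 0.63, 0.766) and anti-CD40 (-0.54 ± 0.62, 0.574) did not pass. The receptor RANK, Tnfrsf11a, moved the other way in DSS (-0.73, adjusted p = 0.00527), IL10 antibody (-0.70, 0.00214) and TCT (-0.78, 0.00328), but rose in anti-CD40 (0.58, 0.0323). The decoy receptor osteoprotegerin, Tnfrsf11b, rose in TRUC (2.63, adjusted p = 0.000778) and DSS (2.93, 0.00053). Without DSS mouse 8 the changes in DSS were -0.44 for Tnfrsf11a (0.0339) and 1.49 for Tnfrsf11b (0.0205).

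Tnfsf13b (chr8:10006467-10039072, + strand) encodes BAFF, the survival factor of B cells, which binds the receptors encoded by Tnfrsf13c, Tnfrsf13b and Tnfrsf17. WT control mice had 13.9, 15.4 and 11.1 CPM, Rag1 control 10.7, 12.5 and 9.29, and Rag2 control 9.21, 5.82 and 13.1 CPM. IL10 antibody mice had 27.2, 44.0, 35.8 and 46.5 CPM, TCT mice 36.2, 19.7 and 34.7, TRUC mice 26.3, 23.2, 23.6 and 21.3, and DSS mice 23.2, 23.9 and 28.6 CPM. These 4 models lay wholly above their controls. Anti-CD40 mice, at 15.6, 16.3 and 13.6 CPM, were also all above their control, and DNBS mice, at 14.2, 5.43 and 13.7 CPM, were not.

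Tnfsf13b rose 2.84-fold in IL10 antibody mice (log2 1.51 ± 0.28, edgeR adjusted p = 0.00011), 2.79-fold in TCT (1.48 ± 0.29, 0.000435), 2.52-fold in TRUC (1.33 ± 0.28, 0.000577) and 1.87-fold in DSS (0.90 ± 0.29, 0.0177). The DSS call was lost without WT control mouse 4 (0.78, adjusted p = 0.0786) or DSS mouse 8 (0.80, 0.0716). Anti-CD40 (0.48 ± 0.29, adjusted p = 0.247) and DNBS (-0.27 ± 0.29, 0.59) did not pass. Its receptor TACI, Tnfrsf13b, rose in all models but DNBS, by 3.57 in TCT, 2.40 in anti-CD40, 1.73 in TRUC, 1.44 in IL10 antibody mice and 1.08 in DSS on the log2 scale, where it did not pass without mouse 8 (0.73, adjusted p = 0.14). The Rag1 control held few reads of it, with a mean of 0.264 CPM and at most 4 counts. Means in TCT, anti-CD40 and TRUC were 3.28, 1.45 and 2.41 CPM, below the 5.65 CPM of the WT control. Those of IL10 antibody mice and DSS were 15.3 and 11.9 CPM. Tnfrsf13c, the BAFF receptor of mature B cells, passed in no model.

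Tnfsf13 (chr11:69682846-69685784, - strand) encodes APRIL, which supports plasma cells through TACI and BCMA. Its counts are uncertain, because 57.3% of the 50-base windows of its exons are shared with the readthrough gene Tnfsfm13 and 221 exon bases lie opposite the antisense gene Tnfsf13os. WT control mice had 7.62, 5.93 and 5.17 CPM, DSS mice 3.71, 4.31 and 1.12, and IL10 antibody mice 10.4, 11.4, 12.4 and 9.31 CPM. The WT control sat between these models without overlap, DSS below it and IL10 antibody above it. Tnfsf13 rose in IL10 antibody mice (log2 0.80 ± 0.24, edgeR adjusted p = 0.00705) and fell in DSS (-1.02 ± 0.26, 0.00431). The fall was -0.64 without DSS mouse 8 (adjusted p = 0.0131), and did not pass with the 2 groups alone in edgeR (0.139) or with DESeq2 (0.0844). In the other models it lay between -0.26 in DNBS and 0.40 in TRUC and did not pass. In IL10 antibody mice Tnfrsf17, which encodes BCMA, was at 4.87 ± 1.71 CPM against 0.668 ± 0.417 in the WT control (2.88, edgeR adjusted p = 0.000102). The summed level of plasma cell markers was 1864 to 2643 CPM against 422 to 768 CPM. The sum was 458 to 480 CPM in the Rag1 control, where Mzb1 was at 0, and 383 to 474 CPM in the Rag2 control, where Jchain was. It is therefore not specific to plasma cells. The part of plasma cells in the rise of Tnfsf13 was not tested.

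Tnfsf15 (chr4:63727084-63745113, - strand) encodes TL1A, whose receptor is DR3, encoded by Tnfrsf25, and variants near the human gene are linked to inflammatory bowel disease. Group means of Tnfsf15 ran from 1.57 ± 0.295 CPM in anti-CD40 to 3.70 ± 1.25 CPM in DSS, and all models but DNBS, which lay just below, overlapped their controls. The log2 change was between -0.41 and 0.28, and it passed in none of the 6 models by edgeR (adjusted p from 0.291 to 0.805). Tnfrsf25 (chr4:152115934-152120119, + strand), a death domain receptor found on T cells and innate lymphoid cells, fell in TRUC. There it was at 0.959, 0.979, 0.916 and 1.06 CPM against 2.30, 2.68 and 2.95 CPM in the Rag2 control, and all TRUC mice were below all controls. The change was -1.43 ± 0.39 (0.372 of the control, adjusted p = 0.00475).

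In TCT Tnfrsf25 was at 8.38, 4.02 and 4.45 CPM against 3.89, 3.61 and 3.53 CPM in the Rag1 control, a difference of 0.61 ± 0.37 that did not pass (edgeR adjusted p = 0.225). It passed against the WT control (1.14, 0.025) and the Rag2 control (1.08, 0.031). In anti-CD40 it was at 1.41, 1.03 and 3.803 CPM (-0.79 ± 0.39, adjusted p = 0.145), and without mouse 8, the highest, the change was -1.59 (0.00611). DSS (0.20 ± 0.38), IL10 antibody (-0.07 ± 0.37) and DNBS (-0.66 ± 0.40) did not pass.

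Cd40 (chr2:165055627-165072948, + strand) encodes the receptor on B cells, macrophages, dendritic cells and stromal cells through which helper T cells activate them. WT control mice had 3.89, 3.20 and 4.43 CPM, Rag1 control 0.811, 1.18 and 1.29, and Rag2 control 0.708, 1.30 and 1.06 CPM. All mice of both Rag controls were below all WT control mice, by -1.80 ± 0.63 and -1.88 ± 0.63 on the log2 scale for Rag1 and Rag2, and neither passed (edgeR adjusted p = 0.0673 and 0.0701). The summed level of 6 B cell markers was 75.8 to 128 CPM in the WT control and 1.03 to 1.96 CPM in these controls, and its part in the level of Cd40 was not tested. No member passed between either Rag control and the WT control, beside 10.9% of all genes for Rag1 and 8.11% for Rag2, and 1 member in each had an unadjusted p below 0.05.

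In TCT, Cd40 was at 9.78, 5.64 and 13.5 CPM, in anti-CD40 at 6.76, 7.72 and 4.88, and in TRUC at 5.38, 9.61, 7.06 and 3.42 CPM. DSS mice had 11.7, 9.09 and 71.1 CPM, IL10 antibody mice 8.18, 8.11, 15.7 and 9.72, and DNBS mice 4.78, 4.89 and 7.42 CPM. Every mouse of each model was above its own control, and DSS mouse 8 was far above the rest. The rise was 8.75-fold in TCT (log2 3.13 ± 0.62, edgeR adjusted p = 0.00042), 7.96-fold in DSS (2.99 ± 0.55, 0.000271), 6.11-fold in TRUC (2.61 ± 0.60, 0.00124) and 5.85-fold in anti-CD40 (2.55 ± 0.62, 0.00545). It was 2.72-fold in IL10 antibody mice (1.45 ± 0.52, adjusted p = 0.022) and did not pass in DNBS (0.57 ± 0.55, 0.546).

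Several of these sizes rested on the control or on 1 mouse. Without DSS mouse 8 the rise of Cd40 in DSS was 1.44 (edgeR adjusted p = 0.00778), near that of IL10 antibody mice. The IL10 antibody call was lost without WT control mouse 1 (1.46, adjusted p = 0.0572) or 2 (1.32, 0.0811) or IL10 antibody mouse 3 (1.18, 0.0714). Against the WT control in place of the Rag1 control the TCT change was 1.33 and did not pass (adjusted p = 0.0648). Against the Rag2 control the anti-CD40 change was 2.63 (adjusted p = 0.00427).

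Cd40lg (chrX:57212143-57224042, + strand) encodes the CD40 ligand of activated CD4+ T cells. It had 39, 30 and 17 counts in the TCT mice, 4, 5, 13 and 4 in IL10 antibody mice, 6, 1 and 7 in DSS, 0, 1 and 1 in DNBS, and 0, 0 and 2 in the WT control. It had 0 in every mouse of the Rag1 control, Rag2 control, TRUC and anti-CD40. Of the Rag-based groups only TCT, which received T cells, held any read of the gene. The others carry labels of mice without T and B cells, and a count of 0 allows up to 0.179 to 0.314 CPM. Cd40 rose in TRUC and anti-CD40, and the part of Cd40lg in the level of Cd40 was not tested. With counts pooled over the group, TCT was at least 31.7-fold higher than its control (86 counts against 0, edgeR adjusted p = 7.12e-05, taking the floor of 3 counts over the control group). It was 51.1-fold higher than the WT control (95% counting interval 13.7 to 429). The bound allows for counting error in the control only. The intervals in this paragraph pool the mice of a group and leave out the spread between them. IL10 antibody mice were 12.3-fold higher than the WT control (3.07 to 107; log2 3.35 ± 0.94, adjusted p = 0.00749). This change was 2.77 without WT control mouse 2 (0.0376) and 5.93 without WT control mouse 4 (0.00428), the only control mouse with a count. In DSS the ratio was 6.56 (1.51 to 59.5) and did not pass (2.50 ± 1.04, adjusted p = 0.0766), but it passed without WT control mouse 4 (5.08, 0.0298) or DSS mouse 6 (2.98, 0.0287).

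**Figure D3:**
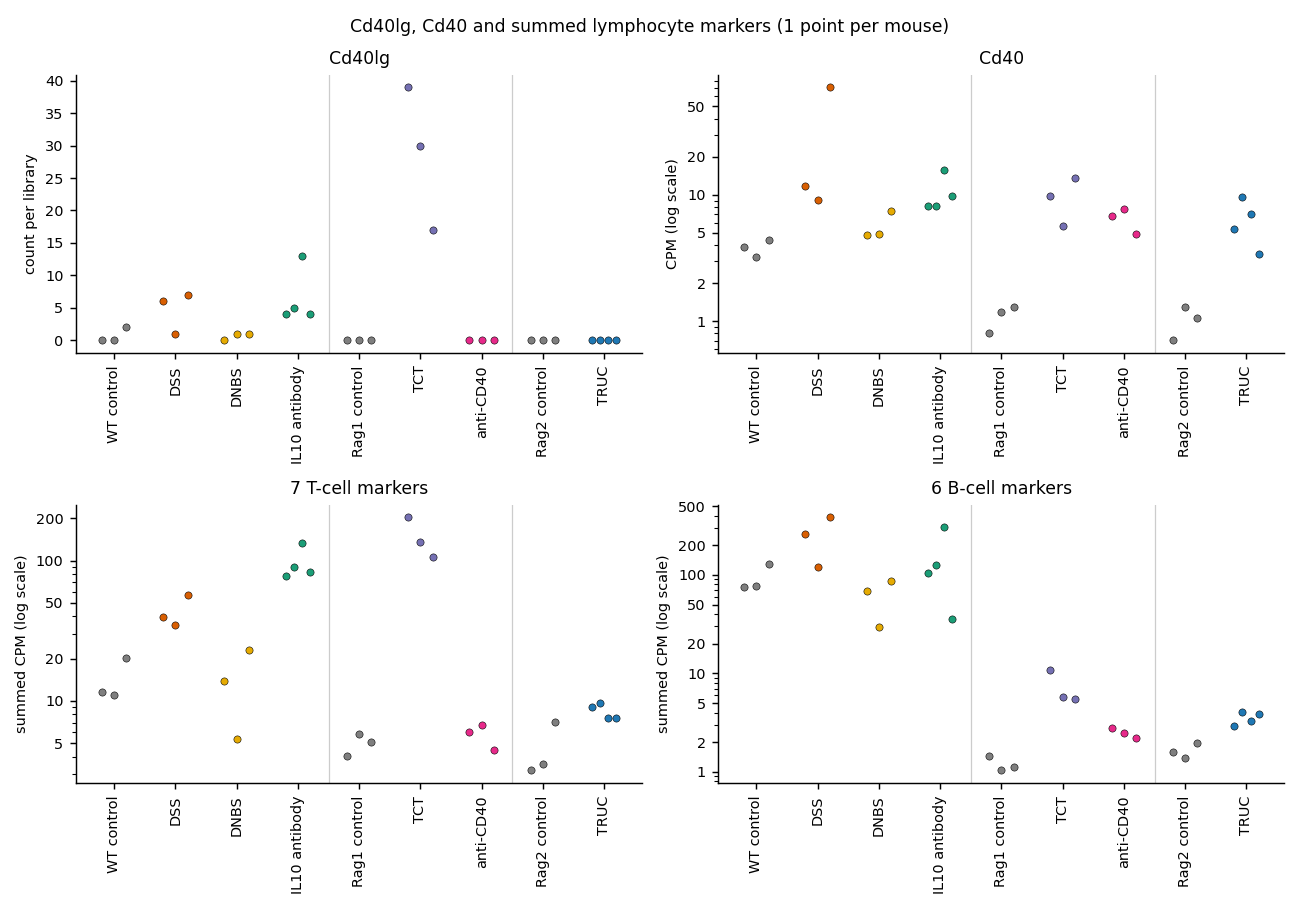
Counts of Cd40lg, CPM of Cd40, and the summed CPM of 7 T cell and of 6 B cell markers, with 1 point per mouse in 9 groups. Cd40lg counts are highest in TCT (17 to 39) and 0 in TRUC and anti-CD40, and Cd40 is at 3.42 CPM or more in all mice of both.

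Counted over the members, 6 rose and 1 fell in TRUC, where 22.4% of all genes rose and 23.4% fell. In DSS 6 rose and 1 fell, beside 17.7% and 16.3%, and in IL10 antibody mice 7 rose and none fell, beside 27.2% and 26.1%. In TCT 7 rose and none fell, beside 16.1% and 14%. In anti-CD40 3 rose (Tnfsf10, Tnfrsf1b and Cd40) and none fell, beside 10.9% and 10.7%. In DNBS 1 rose (Tnfrsf1b) and none fell, beside 3.95% and 2.21%. The median log2 change of the members was 1.55 in TRUC, 2.17 in DSS, 1.48 in IL10 antibody mice, 2.08 in TCT, 0.23 in anti-CD40 and -0.26 in DNBS. The medians for TRUC, anti-CD40 and DNBS leave out Cd40lg, which had too few counts for a fold change there. The median of all genes lay between -0.03 and 0.02.

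Across models, 8 of 10 members differed in their change by the F test over the 6 contrasts, beside 60.5% of all genes, and the exceptions were Tnfsf10 and Tnfsf15. Models that share a control could be set directly against each other. TCT and anti-CD40 differed in 5 members, beside 18.4% of all genes, all higher in TCT. Tnfsf14 was 14.4-fold higher in TCT (log2 3.85 ± 0.67, edgeR adjusted p = 0.000195), Tnfsf11 was higher by 2.21 ± 0.59 (0.00961), Tnfrsf25 by 1.40 ± 0.39 (0.0118) and Tnfsf13b by 0.99 ± 0.29 (0.0168). Cd40lg, with 86 counts against 0, was at least 30.6-fold higher by the same pooled bound. Tnfsf10 (-0.60 ± 0.51, adjusted p = 0.487) and Cd40 (0.58 ± 0.53, 0.513) did not pass, and H2-Ea-ps separated these groups too. Of the 5 calls, only those for Tnfsf14 and Cd40lg held without each mouse in turn. That for Tnfsf11 was lost without anti-CD40 mouse 8 (1.84, adjusted p = 0.0544). That for Tnfsf13b was lost without TCT mouse 1 or 5 or anti-CD40 mouse 8 (0.84, 0.88 and 0.92, adjusted p from 0.0621 to 0.0754), and that for Tnfrsf25 without TCT mouse 1 or anti-CD40 mouse 6 or 7 (1.00, 1.20 and 1.08, adjusted p from 0.0661 to 0.101).

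DSS and DNBS differed in 6 members, beside 22.6% of all genes. Tnfsf11 (log2 2.53 ± 0.59), Cd40 (2.43 ± 0.54), Tnfrsf1b (2.16 ± 0.38), Tnfsf14 (2.11 ± 0.58) and Tnfsf13b (1.18 ± 0.29) were higher in DSS and Tnfsf13 (-0.76 ± 0.26) was lower (edgeR adjusted p from 0.000586 to 0.039). Without DSS mouse 8 only Tnfrsf1b (1.24, adjusted p = 0.00773) and Tnfsf13b (1.08, 0.0351) still passed. Tnfsf13 also did not pass without DNBS mouse 11, 14 or 16 (-0.80, -0.77 and -0.74, adjusted p from 0.0589 to 0.0814), Tnfsf10 passed without DNBS mouse 16 (2.26, 0.00066), and Cd40lg passed without DSS mouse 6 (3.00, 0.0381). DSS and IL10 antibody mice differed in 3, beside 49.8% of all genes. These were Tnfsf13 (-1.82 ± 0.25, adjusted p = 4.05e-06), Cd40 (1.55 ± 0.47, 0.00887) and Tnfsf11 (1.30 ± 0.50, 0.0351), of which without DSS mouse 8 only Tnfsf13 remained (-1.44, 2.45e-06), with Cd40 at -0.01 and Tnfsf11 at -0.09. The Tnfsf11 call was also lost without IL10 antibody mouse 2, 3 or 4 (1.16, 1.35 and 1.30, adjusted p from 0.0503 to 0.0852). Calls were gained by Tnfrsf1b without IL10 antibody mouse 2 or DSS mouse 5 or 6 (1.03 to 1.10), by Tnfsf15 without IL10 antibody mouse 2 or DSS mouse 5 (0.90 and 0.94), by Tnfsf14 without DSS mouse 5 (1.37) and by Tnfsf13b without IL10 antibody mouse 1 (-0.74).

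DNBS and IL10 antibody mice differed in 5 members, beside 33.9% of all genes, all lower in DNBS. They were Tnfsf13b (log2 -1.78 ± 0.28, edgeR adjusted p = 9.96e-05), Tnfsf13 (-1.06 ± 0.24, 0.00198), Tnfrsf1b (-1.37 ± 0.35, 0.00498), Cd40lg (-3.38 ± 0.94, 0.0123) and Tnfsf10 (-1.32 ± 0.50, 0.0441). The Tnfsf10 difference was -3.09 without DNBS mouse 16 (adjusted p = 7.25e-06), and did not pass without IL10 antibody mouse 1, 2, 3 or 4 (-1.28 to -1.40, adjusted p from 0.0532 to 0.0705) or DNBS mouse 11 or 14 (-0.90 and -0.84, 0.231 and 0.196). Cd40lg did not pass without DNBS mouse 11 (-2.74, 0.0719).

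**Figure D4:**
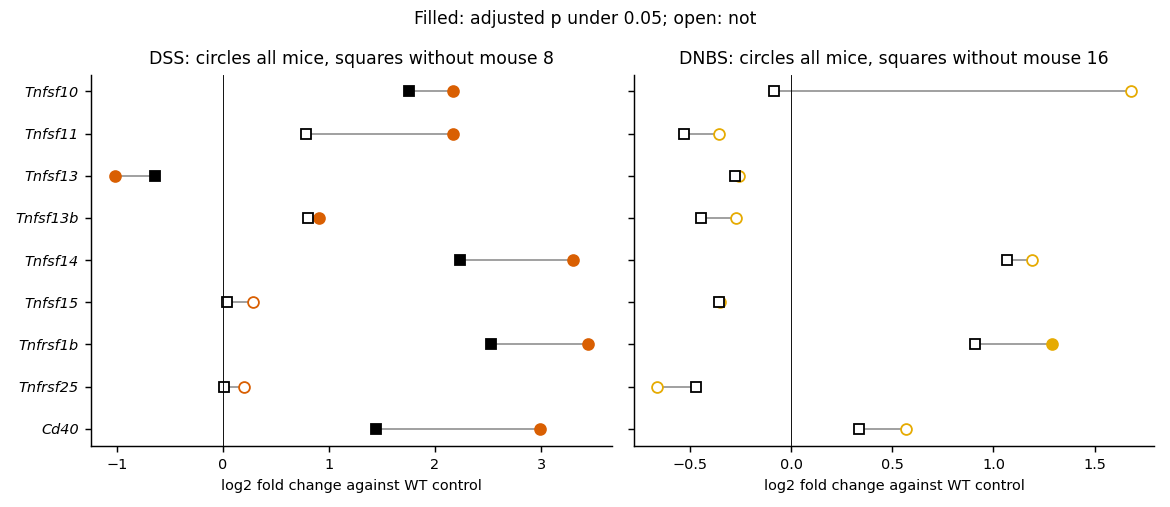
Log2 fold change of the members against the WT control with all mice and after leaving out DSS mouse 8 or DNBS mouse 16. In DSS, Cd40 moves from 2.99 to 1.44 and Tnfsf11 from 2.17 to 0.78, and in DNBS Tnfsf10 moves from 1.68 to -0.09.

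The rest of the family was described by fixed lists, whose counts stand beside the shares of all genes given above for each model. Of 11 other ligands, 9 could be tested, Cd70 with 4 and Tnfsf18 with 55 counts over all mice being too low. Among these 4 rose and 2 fell in TRUC, 4 rose in DSS and 2 of them without mouse 8, 3 rose and 1 fell in IL10 antibody mice, 5 rose in TCT, 2 rose in anti-CD40 and none passed in DNBS. Tnf and Ltb, which encodes the membrane subunit of the lymphotoxin heterotrimer, rose in each model but DNBS, although Ltb did not pass in DSS without mouse 8. Ltb was at 28.2 ± 9.71 CPM in TCT against 2.69 ± 0.509 CPM (log2 3.38, edgeR adjusted p = 2.16e-06), and Fasl, the Fas ligand of cytotoxic lymphocytes, at 4.15 ± 1.38 against 0.214 ± 0.0484 CPM (4.22, 0.000196). Of 25 other receptors 10 rose and 4 fell in TRUC, 13 rose and 2 fell in DSS (9 and 1 without mouse 8), 12 rose and 4 fell in IL10 antibody mice, 12 rose and 1 fell in TCT, 8 rose and 3 fell in anti-CD40, and 5 rose in DNBS, where only Tnfrsf23 rose without mouse 16. Tnfrsf8, which encodes CD30, rose in all 6, to 75.3 ± 10.3 CPM in anti-CD40 and 53.1 ± 4.71 CPM in TRUC against 0.261 and 0.241 CPM in their controls, but did not pass in DNBS without mouse 16 (adjusted p = 0.0539). In IL10 antibody mice it ranged widely, from 1.88 to 79.1 CPM, with at most 0.932 CPM in the WT control. The list medians of the receptors lay between 0.15 in DNBS and 0.97 in DSS, against -0.03 to 0.02 for all genes.

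Of 15 adaptors and NF-kB genes, 8 rose and 1 fell in DSS, and without DSS mouse 8 only Traf3 and Traf5 rose and Tradd fell (2 and 1), when 1944 of 18616 genes rose and 1897 fell. Among them 6 rose in IL10 antibody mice, 6 in TCT, 4 in TRUC with 2 lower, 1 in anti-CD40 and none in DNBS. Nfkb1, the p105 and p50 subunit gene, rose by 0.67 in DSS, 0.63 in IL10 antibody mice and 0.55 in TCT on the log2 scale, and in DSS it did not pass without mouse 8 (0.28, adjusted p = 0.132). Tradd, the adaptor of TNFR1 and DR3, rose by 0.63 in IL10 antibody mice (edgeR adjusted p = 6.51e-05), 0.45 in anti-CD40 and 0.34 in TRUC and fell in DSS (-0.56, 0.000718). Of 8 genes that CD40 signalling is known to raise in antigen-presenting cells, 5 rose in TRUC, 5 in DSS, 5 in IL10 antibody mice, 6 in TCT, 2 in anti-CD40 and none in DNBS, and none fell. In the anti-CD40 mice these 2 were Icam1 (44.3 ± 7.13 against 8.45 ± 1.51 CPM, log2 2.39, adjusted p = 0.00323) and Ccl22, a chemokine of dendritic cells and macrophages (10.6 ± 4.70 against 0.852 ± 0.0375 CPM, 3.62, 6.33e-05), while Cd86 (0.37 ± 0.48, 0.624) and Cd80 (0.64 ± 0.63, 0.499) did not pass. The summed level of monocyte and macrophage markers was 956 to 1177 CPM in anti-CD40 against 350 to 385 CPM in its control, and its part in these changes was not tested.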

How the data were processed

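Raw counts, which the authors deposited for each gene in each mouse, were made from poly(A) RNA of the colon. The submitters' processing notes name Trimmomatic, HISAT2, HTSeq and GRCm38, and strand and counting mode are not given in the sources used here. Reads of overlapping genes and of antisense partners may therefore be split or lost. The 92 spike-in rows, all at 0, were removed. No read was counted for 20470 of 54532 genes. No pair of columns was identical.

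The 18616 genes averaging 3 or more counts were scaled by TMM and fitted with edgeR 4.0.16 (R 4.3.3) as a quasi-likelihood model of 9 groups without covariates. Contrasts set each model against its control, and the 6 contrasts with each other by an F test. Adjusted p is Benjamini-Hochberg over all genes tested, with a threshold of 0.05. The standard error is the size of the log2 fold change over the square root of F. Alternatives were RLE and upper quartile scaling, other filters, each pair of groups alone, DESeq2 1.42.0, a replicate block, other controls and each mouse left out, those for models against each other being chosen after seeing the data. The code was tested on simulated data. Genes of the lists named in the text were those with most models past the threshold, and partners of the members, with Cd80, Cd86, Traf3 and Tnfrsf23 added after their values were seen. Positions and exon lengths are from GENCODE M21. The members and lists were chosen with earlier results of these data known. Same-numbered mice did not deviate together (r -0.05 to 0.06). A marker gene that is withheld is not reported here.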

Additional observations from a re-analysis of the deposited data

Results flagged for a closer look

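In IL10 antibody mouse 4 Tnfsf10 was at 97.3 CPM, below the 129 to 133 CPM of the other 3, a gap of 0.875 of the range of the group (Dixon's test, which flags about 1 in 20 groups by chance). The test was run on the highest and lowest mouse of IL10 antibody and TRUC for each member with counts there. No other value was flagged. That mouse also had the highest summed level of epithelial markers of all mice, 13106 CPM, and the part of this in the value was not tested.

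The change against control differed between the 6 models for 8 members by edgeR's F test. The adjusted p was 7.37e-05 for Tnfsf13, which fell in DSS and rose in IL10 antibody mice, 0.00013 for Tnfsf13b, 0.000268 for Cd40lg and 0.000302 for Tnfsf14. It was 0.000993 for Tnfrsf1b, 0.0014 for Tnfsf11, 0.00426 for Tnfrsf25, which passed as lower in TRUC alone with all mice, and 0.00473 for Cd40.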

How the results depend on the processing

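RLE scaling, upper quartile scaling and the filterByExpr filter left all 57 member values on their side of the threshold and in their direction. With no filter 1 call was gained, with the 2 groups alone in edgeR 2 were lost (Tnfsf11 and Tnfsf13 in DSS) and 2 gained (Tnfsf13 in TRUC, Tnfsf11 in IL10 antibody), and with DESeq2 1 was lost (Tnfsf13 in DSS). Of 361 values without a mouse, 17 lost and 5 gained a call and 10 changed sign. No member fell in DSS with the 2 groups alone or with DESeq2 (0 against 1). In DNBS 2 members rose with no filter against 1, and 0 to 2 without a mouse, and 0 to 1 fell in anti-CD40. Members that differed without a mouse numbered 2 to 7 for DSS against DNBS, 1 to 6 for DSS against IL10 antibody (5 with upper quartile scaling), 3 to 5 for DNBS against IL10 antibody and 3 to 5 for TCT against anti-CD40. With upper quartile scaling 1 member differed between the Rag1 and WT controls. Signs that changed with a mouse left out belonged to values that did not pass with all mice, given as the range over mice left out: Tnfrsf25 in DSS (-0.0072 to 0.36, below 0 without WT control 4), Tnfsf10 (-0.087 to 2.15, below 0 without DNBS 16) and Tnfsf13b (-0.50 to 0.056, above 0 without DNBS 14) in DNBS, Tnfrsf25 in IL10 antibody (-0.28 to 0.11, above 0 without WT control 1 or 2 or IL10 antibody 2 or 4), Tnfsf15 in TCT (-0.10 to 0.41, below 0 without Rag1 control 4 or TCT 1, and -0.45 against the WT control and -0.12 against the Rag2 control) and Tnfsf14 in anti-CD40 (-1.11 to 0.020, above 0 without Rag1 control 2). The causes were not tested.

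A replicate block could be fitted for TRUC and IL10 antibody, and only with mice whose number occurred in both model and control. TRUC mice 3 and 5, Rag2 control mouse 1 and IL10 antibody mouse 3, which held 13 counts of Cd40lg, were therefore left out. In this fit the call of Cd40lg in IL10 antibody was lost (2.88, edgeR adjusted p = 0.0716) and no other call changed. The parts of the block and of the mice left out were not separated. The sources used here do not say that the numbers pair mice. Same-numbered mice did not deviate together, but so few pairs cannot show whether mice shared a litter or cage. Upper quartile scaling moved the median of all genes by -0.11 in TRUC and -0.17 in IL10 antibody, and the share of calls that were higher from 51.0% to 38.4% in IL10 antibody and from 64.1% to 51.0% in DNBS. In DNBS 736 genes rose and 412 fell, against 409 and 215 with the 2 groups alone, 1105 and 772 with DESeq2, and 385 and 52 without mouse 16. In DSS 3299 rose and 3037 fell, against 1944 and 1897 without mouse 8. Depth limits Cd40lg and Tnfsf14, whose controls held few reads.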

Other observations

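Over the means of the 9 groups, the genes whose pattern was most like that of Tnfsf10 were Apol6 (r = 0.986), Ap5b1 (0.979) and Jak3 (0.977), among 14412 genes with enough counts. For Tnfrsf1b they were Pfkfb3 (0.992), Myd88 (0.987) and Osmr (0.985), and for Cd40 they were Plxnc1 (0.984), Ifi204 (0.981) and Ecscr (0.972). The points share their libraries and depth, and the values describe these groups only. Deviations of the 29 mice from their group means gave r = 0.690 for Apol6, 0.818 for Pfkfb3 and 0.840 for Ifi204, but 0.146 for Ap5b1. Apol6 was at 8.78, 6.05 and 36.4 CPM in the DNBS mice and 17.9, 8.14 and 147 CPM in the DSS mice, so that DNBS mouse 16 and DSS mouse 8 were high in this gene as in Tnfsf10. In DSS mouse 8 Pfkfb3 was at 422 CPM against 94.5 and 73.4 CPM in the other DSS mice. Ifi204 was at 200 CPM there against 19.3 and 27.9 CPM. No correlation was computed without this mouse.

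Among the members, Tnfrsf1b and Tnfsf10 had r = 0.902 over the group means and 0.600 over the deviations of the mice. Tnfsf11 and Tnfsf14 had 0.893 and 0.457. Over the deviations Cd40 moved with Tnfsf11 (0.811) and against Tnfsf13 (-0.676). These deviations include DSS mouse 8. There Cd40 was 6.84 times, Tnfsf11 5.96 times and Tnfsf13 0.279 times the mean of the other DSS mice. The correlations were not computed without that mouse, so they do not show that the genes varied together across the other mice.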
